A study of Mus musculus with 2 samples.

Results

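The subject is a group of 9 genes measured in single macrophages of the mouse sciatic nerve: the annexins Anxa1, Anxa2, Anxa3, Anxa4 and Anxa5, the galectins Lgals1, Lgals3 and Lgals9, and the galectin-3-binding protein gene Lgals3bp. They were chosen by name from the 54838 genes of the deposited gene lists, with earlier results of these libraries known. All 9 were found in both libraries, and each had a mean level over the 2 libraries of at least 20 CPM (UMIs of the gene per 1000000 UMIs of all genes), as did 5531 genes in all. On GRCm38, with the GENCODE M21 annotation, they are protein-coding genes at chr19:20373428-20390944 on the minus strand (Anxa1), chr9:69453620-69491795 on the plus strand (Anxa2), chr5:96793339-96845966 plus (Anxa3), chr6:86736840-86793584 minus (Anxa4), chr3:36448923-36475894 minus (Anxa5), chr15:78926725-78930465 plus (Lgals1), chr14:47367751-47386160 plus (Lgals3), chr11:78962974-78984946 minus (Lgals9) and chr11:118392751-118402092 minus (Lgals3bp). The study sorted macrophages as CD64+ CD45int cells from sciatic nerves pooled from 19 male mice aged 10 to 12 weeks. The mice were Flt3-Cre LSL-YFP fl/fl reporters, in which Cre driven by Flt3 switches on YFP for life in the progeny of haematopoietic stem cells (HSC) and fetal monocytes. The YFP-negative cells were read by the study as embryonic-derived and the YFP-positive cells as HSC-derived, and both fractions came from the same genotype, sex and age, with no treatment named. A YFP-negative cell is defined only by absence of recombination, so incomplete labelling would place a cell of the other origin in it.

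Each fraction was sequenced as 1 library of 10x single-cell cDNA, in which reads come from the 3′ end of a transcript and every molecule is counted once by its unique molecular identifier (UMI). With 1 library a fraction there was no replicate, no test of origin was possible, and every interval below is an exact 95% interval that covers counting error only. Barcodes with at least 500 UMIs and 200 genes were taken as cells. This gave 1045 YFP-negative cells with a median of 2233 UMIs and 4053 YFP-positive cells with a median of 1484 UMIs, which held 2418044 and 6747554 UMIs. Only 7 cell barcodes occurred in both libraries. All 10 macrophage markers examined, Csf1r, Adgre1 and C1qa among them, were present, at a summed 20309 CPM in YFP-negative and 20272 CPM in YFP-positive cells. Among markers of other cells, mural and fibroblast genes were higher in the YFP-positive fraction. In the same order, the 7 mural cell genes summed to 13.2 and 133 CPM and the 6 fibroblast genes to 23.6 and 94.6 CPM. Rgs5 among the mural genes was not higher, at 2.48 and 1.33 CPM. The 6 Schwann cell genes summed to 691 and 631 CPM. Sums were also lower in YFP-positive for endothelial (11.2 and 9.63 CPM), B cell (57.9 and 53.8), neutrophil (16.5 and 11.7) and dendritic genes (72.0 and 64.5). T cell and mast cell genes summed to under 1 CPM in each library.

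Annexins are cytosolic proteins that bind acidic phospholipids, phosphatidylserine above all, when calcium is present. Anxa1 is also secreted and acts on formyl peptide receptors to limit inflammation, Anxa2 pairs with S100a10 at the plasma membrane, and Anxa5 is the protein used in the laboratory to stain dying cells. Galectins are lectins that bind β-galactosides on glycoproteins and are secreted without a signal peptide. Lgals3 is a familiar marker of phagocytic and recruited macrophages, also in injured nerve, and it marks damaged lysosomes. Lgals1 restrains inflammation, Lgals9 is a ligand of the receptor Havcr2 (TIM-3), and Lgals3bp is a secreted glycoprotein that binds galectins. Lgals9 and Lgals3bp both belong to the genes that interferon is known to raise.

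Lgals1 was by far the most abundant of the 9. Summed over the cells of a library it reached 1125 CPM in YFP-negative (2720 UMIs) and 1232 CPM in YFP-positive cells (8316 UMIs). Anxa5 followed with 324 and 424 CPM, then Anxa3 with 93.5 and 114 CPM and Lgals3 with 62.9 and 81.8 CPM, always in the order YFP-negative, YFP-positive. These 4 kept the same order in both libraries and their intervals did not overlap in either. The other 5 lay between 17.8 and 53.5 CPM. Among these the order in YFP-negative cells was Anxa4, Anxa2, Lgals3bp, Lgals9 and Anxa1, and each neighbour's interval overlapped the next. In YFP-positive cells it was Anxa2, Anxa4, Anxa1, Lgals3bp and Lgals9, and of these neighbours only Anxa4 and Anxa1 had separate intervals. A UMI marks 1 molecule at its 3′ end, so these levels were not divided by gene length.

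**Figure D1:**
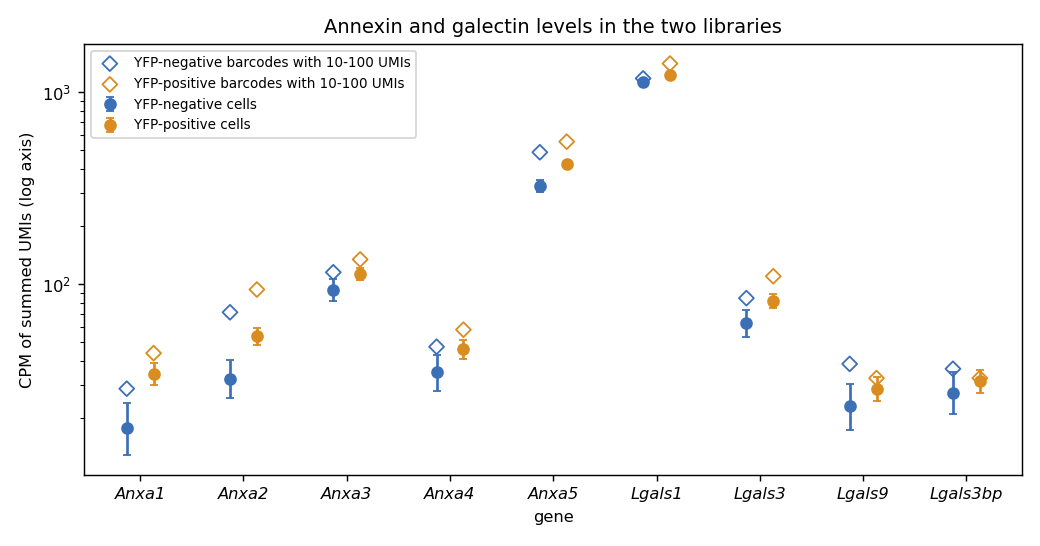
Level of each gene in the 2 libraries, as CPM of the summed UMIs on a log axis. Filled points are cells with their 95% counting interval, open diamonds the barcodes with 10 to 100 UMIs of the same library; the YFP-positive point lies above the YFP-negative one for all 9 genes, and every diamond lies at or above its point.

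The same transcripts were found outside cells. In barcodes with 10 to 100 UMIs, which hold mostly RNA that floated free in the suspension, each of the 9 genes had a higher CPM than in the cells of its library, from 1.04 times as high for Lgals3bp in YFP-positive to 2.22 times for Anxa2 in YFP-negative. The intervals of free and cell levels overlapped for some, Lgals3bp in YFP-positive (25.1 to 41.3 and 27.2 to 35.8 CPM) among them. Genes of other families lay on both sides, with the phosphatidylserine receptor Mertk at 0.71 times in YFP-negative and 0.63 times in YFP-positive. The free level was also higher in the YFP-positive library for 7 of the 9 genes, but not for Lgals9 (32.4 against 38.5 CPM) or Lgals3bp. For Anxa1 it was 43.7 CPM (35.1 to 53.8) against 28.6 CPM (18.7 to 41.9), with overlapping intervals. For Anxa2 it was 93.9 CPM (81.0 to 108) against 71.5 CPM (55.1 to 91.1), also overlapping. How many of all genes were higher outside cells, or higher there in YFP-positive, was not counted. The part of free RNA in the library differences was not tested beyond the subtraction of a fixed share. A low share of cells with a UMI therefore cannot be read as a share of expressing cells. With each cell thinned to 500 UMIs, a Lgals1 UMI was seen in 36.7% of YFP-negative (33.8 to 39.8%) and 41.5% of YFP-positive cells (39.98 to 43.0%). Barcodes whose 500 UMIs were all free RNA would show one in 44.6 and 50.6%. That is a reference value, since the part of free RNA inside a called cell was not measured. For Anxa5 the shares were 12.2 and 16.8%, against 21.6 and 24.2% for barcodes of free RNA only. Shares of the other members ran from 0.77% (Anxa1, YFP-negative) to 5.26% (Anxa3). Those of Lgals3bp, at 1.82 and 1.75%, were the only ones not below this reference value, which was 1.80 and 1.61%. At this depth the share was higher in YFP-positive for 7 of the 9 genes, against 50.6% of all genes, and without thinning for 4.

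The first comparison asked whether the genes differ between macrophages of the 2 origins. Each of the 9 was higher in the YFP-positive library, 2 of them by at least 1.5-fold, and none was lower. Of the 5531 genes tested, 2737 had a log2 ratio above 0. Over all genes tested, 1.54% were at least 1.5-fold higher and 5.77% at least 1.5-fold lower in YFP-positive cells. The counting interval lay above 0 for 7 of the 9, against 11.6% of all genes, and below 0 for none, against 13.8%. The median log2 ratio (of CPM + 1, YFP-positive over YFP-negative) was 0.37 over the 9 and -0.0024 over all genes tested. Because of how the genes were chosen, the common direction is a description.

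Anxa1 and Anxa2 held the largest differences. Anxa1 was at 17.8 CPM in YFP-negative (12.9 to 24.0; 43 UMIs) and 34.1 CPM in YFP-positive cells (29.8 to 38.8; 230 UMIs), so that the intervals did not overlap and the log2 ratio was 0.90 (0.45 to 1.38). Anxa2 was at 32.3 CPM (78 UMIs) and 53.5 CPM (361 UMIs), a log2 ratio of 0.71 (0.37 to 1.07). These were the only members past 1.5-fold, at 1.87-fold and 1.64-fold. Anxa5, with far more UMIs (784 and 2859), gave a smaller but better counted log2 ratio of 0.39 (0.27 to 0.50). Anxa4, an annexin best known from epithelia, gave 0.39 (0.05 to 0.74) and Anxa3 gave 0.28 (0.06 to 0.50). With cells thinned to 500 UMIs Anxa3 was at 0.00031, so its difference was not seen at that depth. At 1000 UMIs a cell, its mean was 0.0927 UMIs in YFP-negative and 0.117 UMIs in YFP-positive cells. There 8.27% (6.55 to 10.3%) and 10.6% (9.49 to 11.8%) of cells had a UMI, with overlapping intervals.

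Among the galectins, Lgals3 had a log2 ratio of 0.37 (0.12 to 0.64) from 152 and 552 UMIs, close to those of Anxa4 and Anxa5, and 0.59 with cells thinned to 500 UMIs. Lgals1, counted most deeply, had 0.13 (0.07 to 0.19). For Lgals9, at 23.2 and 28.5 CPM from 56 and 192 UMIs, and for Lgals3bp, at 27.3 and 31.3 CPM from 66 and 211 UMIs, the intervals included 0, at 0.29 (-0.13 to 0.72) and 0.19 (-0.20 to 0.60). At this depth a library difference of these genes was not detectable, and a difference as large as 1.5-fold was not shut out for either.

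**Figure D2:**
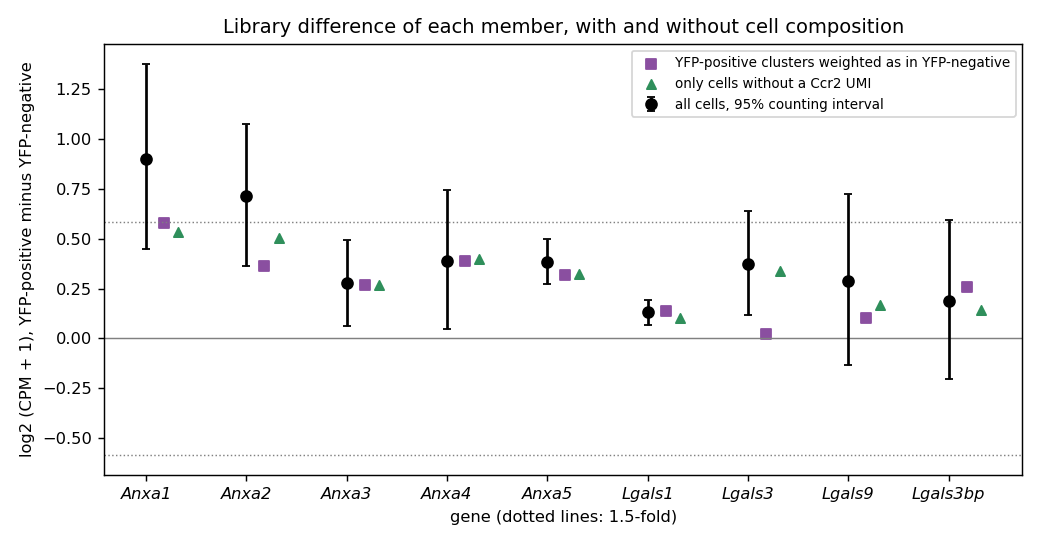
Difference of each gene between the libraries, as log2 of CPM + 1, YFP-positive minus YFP-negative. Black points carry 95% counting intervals over all cells, purple squares weight the YFP-positive clusters as in the YFP-negative library, green triangles use only cells without a Ccr2 UMI, and dotted lines mark 1.5-fold; the square of Lgals3 drops to 0.023 and that of Anxa2 to 0.36.

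The cells of both libraries were then clustered together, with the 9 genes, their families and their partner genes left out, to see where in the population each gene was high. Of 9 clusters, numbered by size, 6 took a name from their markers. These were a Ccr2 monocyte-derived-like cluster (number 2, led by Ccr2, Tppp3, S100a6 and S100a4), an early response-like cluster (5, led by Hspa1a and with the cytokines Cxcl2 and Ccl4 among its leading genes), a Cd209 and Retnla-like cluster (6), an interferon-like cluster (7, led by Irf7 and Ifit3), a mural-like cluster (8, led by Myl9 and Myh11, with Schwann cell and fibroblast RNA as well) and a cycling-like cluster (9, led by Top2a and Birc5). The 3 others stayed unnamed: number 1, of shallow cells with a median of 1002 UMIs and led by Fhl3 and Slc39a1; number 3, led by Mmp9; and number 4, led by Ccl12 and Ccl7. Of the 7 markers that name the Ccr2 monocyte-derived-like cluster, Ly6c2 had 1 UMI in YFP-negative and 0 in YFP-positive cells, and Plac8 had none. The macrophage markers summed to 21215 CPM in this cluster, and a monocyte origin of its cells was not tested. Cluster levels are descriptions, since clusters are made from the same cells. The highest and the lowest cluster of a gene differed by at least 2-fold for 7 of the 9 genes, the exceptions being Anxa4 (1.54-fold) and Anxa5 (1.80-fold). This was also true of 68.3% of all genes tested, and the count of members ran from 5, with clusters of at least 100 cells, to 9, at resolution 1.2 or with 10 principal components.

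**Figure D3:**
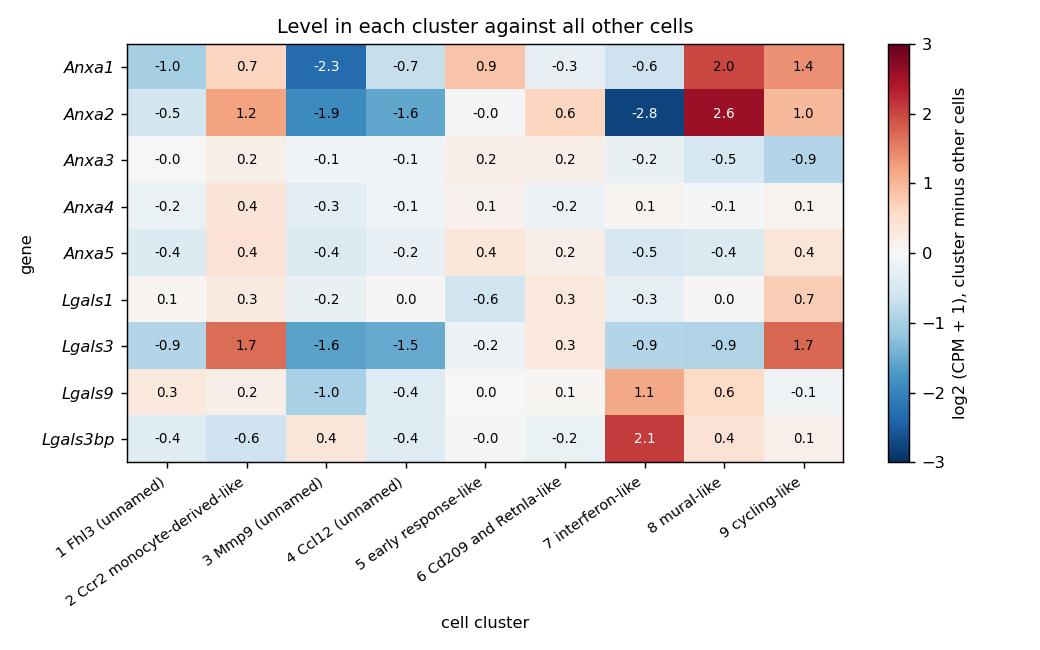
Level of each gene in each of 9 cell clusters against all other cells, as log2 of CPM + 1 (colour and printed number; red higher, blue lower). Lgals3 stands out in the Ccr2 monocyte-derived-like and cycling-like clusters, at 1.7 each, Lgals3bp in the interferon-like cluster at 2.1, and Anxa1 and Anxa2 in the mural-like cluster at 2.0 and 2.6.

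Lgals3 and Anxa2 were high in the Ccr2 monocyte-derived-like cluster, which held 105 YFP-negative and 753 YFP-positive cells. Lgals3 stood there at 177 CPM (157 to 198), 1.68 above all other cells on the log2 scale (1.47 to 1.90), and Anxa2 at 89.9 CPM (76.2 to 105), against 38.5 CPM in the other cells (log2 interval 0.91 to 1.49). These were the 2 of 9 genes at least 2-fold higher in that cluster, where 0.217% of all genes tested were. With 10 principal components, or with cells thinned to 500 UMIs before clustering, both stayed above 0 but under 2-fold, at 0.84 and 0.84 for Lgals3 and 0.58 and 0.82 for Anxa2. Anxa5 and Lgals1 were higher by less, at 0.44 (0.32 to 0.55) and 0.27 (0.20 to 0.33), and Anxa1 was 0.66 higher (0.26 to 1.04). Lgals3bp was at its lowest there, at 20.8 CPM. Low levels were also seen in unnamed clusters, although Anxa2 was lowest in the interferon-like cluster, at 6.44 CPM (2 UMIs). In the Mmp9-led cluster Lgals3 was at 26.9 CPM (18.4 to 38.0), Anxa2 at 13.5 CPM and Anxa1 at 5.89 CPM (7 UMIs), so that 3 of the 9 genes were at least 2-fold lower than in other cells, against 1.84% of all genes. In the Ccl12-led cluster it was 2 of 9, Lgals3 at 30.4 CPM and Anxa2 at a log2 ratio of -1.56 to the other cells, against 1.07%, and none was 2-fold higher, against 0.0723%. Of the 5 annexin partners compared, 2 were at least 2-fold higher than in the other cells in the Ccr2 monocyte-derived-like cluster and at least 2-fold lower in the Mmp9-led cluster, S100a4 and S100a6, which are also markers by which the former was named. The log2 ratios of S100a10 were 0.55 and -0.80 in these clusters and those of S100a11 were 0.50 and -0.58.

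Small clusters held the highest level of several members. In the cycling-like cluster of 74 cells Lgals3 reached 243 CPM (185 to 314) and Lgals1 its highest level of 1965 CPM (1791 to 2151), against 72.4 and 1184 CPM in the other cells. Lgals3 and Anxa1, the latter from 18 UMIs, were the 2 of 9 genes at least 2-fold higher there, as were 6.44% of all genes. Anxa1 was under 2-fold there with 1000 variable genes, at 0.72, and at 0.043 in YFP-negative cells alone, where it had 1 UMI in the cluster. Anxa3 was at its lowest, at 58.7 CPM, and none of the 9 was 2-fold lower, against 8.99%. In the mural-like cluster of 101 cells, with a median of 959 UMIs, Anxa1 was at 117 CPM (67.9 to 187; 17 UMIs) and Anxa2 at 267 CPM (190 to 365; 39 UMIs), against 28.4 and 44.3 CPM in the other cells. They were 2 of 9 genes at least 2-fold higher there, as were 8.44% of all genes, and none of the 9 was 2-fold lower, against 17.2%. This cluster carries RNA of vessel wall cells, fibroblasts and Schwann cells, and which cells the annexin UMIs came from was not tested. Without it the library ratios of Anxa1 and Anxa2 were 0.89 and 0.78.

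Lgals1 had its lowest level in the early response-like cluster, 847 CPM (803 to 894), a log2 ratio of -0.59 to the other cells, while Anxa5 was at 490 CPM (456 to 525), 0.37 above, and Anxa1 at 48.0 CPM, 0.86 above. The Lgals1 difference ran from -0.62 to -0.25 over the clusterings tried. Those of Anxa1 and Anxa5 turned to -0.60 and -0.13 with 10 principal components, and went to -0.40 and 0.0056 with cells thinned to 500 UMIs before clustering. The Cd209 and Retnla-like cluster had 1473 CPM of Lgals1 (1383 to 1568) and 72.4 CPM of Anxa2, and none of the 9 genes passed 2-fold in it in either direction, against 1.19% of all genes higher and 2.39% lower. These values depended on the clustering: the log2 ratio of Anxa2, 0.65, was 1.22 at resolution 0.4, 1.13 with cells thinned before clustering and 1.41 in YFP-negative cells alone, and that of Lgals1, 0.32, was -0.04 at resolution 0.4. Nor did any of the 9 pass 2-fold in the early response-like cluster, against 1.27% and 0.976%, although Anxa1 did at resolution 1.2 (1.04), or in the Fhl3-led cluster, against 1.08% and 1.05%.

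Lgals3bp and Lgals9 were highest in the interferon-like cluster of 167 cells. Lgals3bp stood at 119 CPM (83.8 to 164; 37 UMIs), 2.10 above other cells on the log2 scale (1.56 to 2.59), and Lgals9 at 57.9 CPM (34.3 to 91.6; 18 UMIs), 1.13 above (0.36 to 1.81). They were the 2 of 9 genes at least 2-fold higher there, against 1.32% of all genes. Both fractions showed it for Lgals3bp, at 123 CPM in the 40 YFP-negative and 117 CPM in the 127 YFP-positive cells of the cluster. Lgals9 was at 56.1 and 58.7 CPM, but its 18 UMIs are shared between the fractions, so it is not read within each. At 500 UMIs a cell, 16 of the 167 cells had a Lgals3bp UMI (9.58%, 5.58 to 15.1%), against 1.05 to 2.33% in the 6 largest clusters, whereas no cell had a Lgals9 UMI (0 to 2.18%), so the Lgals9 level rests on the deeper counts alone. Over the other clusterings that gave such a cluster the log2 ratio of Lgals3bp ran from 2.06 to 2.20 and that of Lgals9 from 0.59 to 1.68. Anxa2 was lowest there, with 2 UMIs in all, a log2 ratio to other cells of -2.76 (-4.83 to -1.05), the only one of the 9 that was at least 2-fold lower, against 4.68% of all genes.

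Promoter sequences of the genes that shared a cluster are given for reference, from RefSeq on GRCm38.p6, cut before the first annotated exon base. Distances to a start are counted from the RefSeq start, which lies past the end of each printed stretch. In the table used 7 of the 9 genes had an entry, and Anxa3 and Lgals1 had none. The motifs were picked after the cluster values were known. Capitals mark a match to the core of the interferon-stimulated response element, GAAA followed by any 2 bases and GAAA again, read on both strands. Lgals9 had 1 match, 55 bases before the RefSeq start site and on the opposite strand. It was the only one of the 7 with a match in the 250 bases before the start. Of 32851 promoters of that length, 2.98% held one. The stretch of Lgals9 is chr11:78984947-78985174 on the minus strand and that of Lgals3bp chr11:118402093-118402209 on the minus strand.
Lgals9: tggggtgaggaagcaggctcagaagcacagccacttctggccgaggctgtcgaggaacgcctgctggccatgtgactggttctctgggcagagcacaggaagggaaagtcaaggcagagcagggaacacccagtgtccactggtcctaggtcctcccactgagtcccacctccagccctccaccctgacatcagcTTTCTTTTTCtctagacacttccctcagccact
Lgals3bp: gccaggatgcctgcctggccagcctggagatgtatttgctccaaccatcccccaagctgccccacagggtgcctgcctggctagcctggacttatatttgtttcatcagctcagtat

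For Anxa2 and Lgals3, which were high together in the Ccr2 monocyte-derived-like cluster, capitals mark the AP-1 letters TGANTCA, found in 6.75% of the promoters. Anxa2 held 1 match, 95 bases before its RefSeq start, and was the only one of the 7 members with one. The Lgals3 stretch lies inside the longer gene model that the annotation gives for Lgals3 and held none. A match of letters is not a binding site, and these data do not measure one. The stretches are chr9:69453433-69453619 on the plus strand for Anxa2 and chr14:47373610-47373812 on the plus strand for Lgals3.
Anxa2: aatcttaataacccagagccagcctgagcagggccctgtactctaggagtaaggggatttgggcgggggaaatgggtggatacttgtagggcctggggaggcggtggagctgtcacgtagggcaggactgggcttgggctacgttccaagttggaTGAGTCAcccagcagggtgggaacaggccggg
Lgals3: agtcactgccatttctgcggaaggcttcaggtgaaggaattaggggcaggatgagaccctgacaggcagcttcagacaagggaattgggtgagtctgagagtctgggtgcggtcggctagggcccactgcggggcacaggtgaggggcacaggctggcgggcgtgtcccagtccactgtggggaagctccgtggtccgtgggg

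Because the fractions filled the clusters unequally, the library comparison was repeated within and across clusters. Of the 1045 YFP-negative cells, 282 lay in the Mmp9-led and 282 in the Ccl12-led cluster, where Lgals3 and Anxa2 were low. Of the 4053 YFP-positive cells, 535 and 462 lay there. The Fhl3-led cluster held 95 YFP-negative and 1150 YFP-positive cells, and the Ccr2 monocyte-derived-like cluster 105 and 753. When the YFP-positive clusters were weighted as in the YFP-negative library, the log2 ratio of Lgals3 fell from 0.37 to 0.023 and that of Anxa2 from 0.71 to 0.36, and neither of the 2 members past 1.5-fold remained past it, Anxa1 being at 0.58. For Anxa5 and Lgals1 it moved little, to 0.32 and 0.14. Other settings gave no such drop for Lgals3. Leaving out the Ccr2 monocyte-derived-like cluster, chosen after seeing the data, gave 0.55 for Lgals3 and 0.64 for Anxa2. Among cells without a Ccr2 UMI they were at 0.34 and 0.50. What part of the Lgals3 difference comes from the unequal filling of clusters was not tested. Within clusters, 81 ratios (9 genes in 9 clusters) were formed. Of their intervals 16 lay above 0 and 4 below, against 3.61% and 5.69% of the same intervals over all genes tested. Lgals1 was higher in YFP-positive cells in 5 clusters by its interval and Anxa5 in 3, and Lgals9 and Lgals3bp in none. Lgals3 went both ways by these intervals. In the Ccr2 monocyte-derived-like cluster it was 251 CPM in YFP-negative and 164 CPM in YFP-positive cells, a log2 ratio of -0.62 (-1.02 to -0.20). In the early response-like cluster it was 22.8 and 80.7 CPM, 1.78 (0.71 to 3.04), the former from 7 UMIs. The intervals leave out spread between cells, and 1 YFP-negative cell thinned to 1000 UMIs held 10 Lgals3 UMIs. Whether a few cells carry the reversal was not tested.

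**Figure D4:**
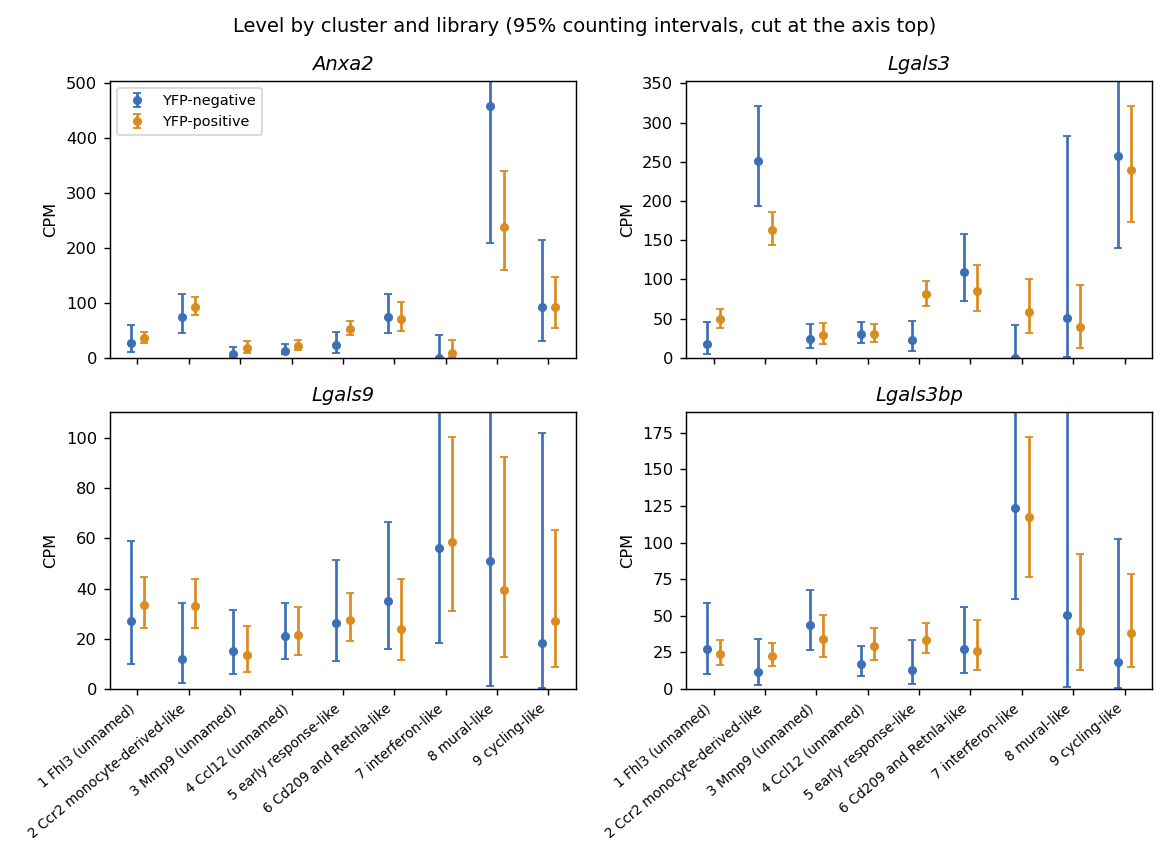
CPM of Anxa2, Lgals3, Lgals9 and Lgals3bp in each of the 9 clusters, YFP-negative in blue and YFP-positive in orange, with 95% counting intervals that run off the top in small clusters. Lgals3 is above 160 CPM in both libraries in the Ccr2 monocyte-derived-like and cycling-like clusters, and Lgals3bp above 110 CPM in both in the interferon-like cluster.

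Ccr2, the receptor by which monocytes leave the marrow and the gene by which the study set apart its mostly YFP-positive cluster, gave a split that needs no clustering. At least 1 Ccr2 UMI was present in 103 of the 1045 YFP-negative and in 1019 of the 4053 YFP-positive cells. By flow cytometry the study found CCR2 protein only on macrophages of the YFP-positive fraction. Whether the Ccr2 UMIs of YFP-negative cells came from free RNA was not tested. A cell without a Ccr2 UMI may still express the gene. Cells with one were deeper, with a median of 2884 against 2150 UMIs in YFP-negative and 1885 against 1359 UMIs in YFP-positive. In YFP-positive cells Anxa1 was at 59.1 CPM with and 23.1 CPM without a Ccr2 UMI, a log2 ratio of 1.32 (0.95 to 1.69), Anxa2 at 82.8 and 40.6 CPM, 1.01 (0.71 to 1.31), and Lgals3 at 108 and 70.3 CPM, 0.61 (0.36 to 0.86). These were 3 of 9 genes past 1.5-fold, where 1.37% of all genes were, and none was as far lower, against 3.27%. Of the 3, only Anxa2 stayed past 1.5-fold in each alternative tried: Anxa1 was at 0.43 when the Ccr2 UMI was sought after thinning to 500 UMIs, and Lgals3 at 0.55 in cells of at least 1000 UMIs. In YFP-negative cells it was 4 of 9 against 7.99%, with Anxa2 at 59.4 and 28.4 CPM, 1.04 (0.21 to 1.80), Lgals3 at 115 and 55.3 CPM, 1.05 (0.47 to 1.60), Anxa4 at 0.91 (0.09 to 1.66), and Anxa1 at 1.03, whose interval from 10 and 33 UMIs reached below 0 (-0.10 to 2.05) and which turned to -0.54 after that thinning. Anxa5 was higher with a Ccr2 UMI in both libraries, by 0.56 (0.29 to 0.83) and 0.43 (0.32 to 0.54), and Lgals1 by 0.19 (0.03 to 0.35) and 0.17 (0.10 to 0.24). For Lgals9 and Lgals3bp every interval included 0, although Lgals9 in YFP-negative cells, from 4 and 52 UMIs, was the 1 member over 1.5-fold lower (-0.85, -2.53 to 0.52), against 15.3% of all genes. Among cells without a Ccr2 UMI alone, all 9 genes were higher in the YFP-positive library, none of them by 1.5-fold. Anxa1 was at 0.54, Anxa2 at 0.50, Lgals9 at 0.17 and Lgals3bp at 0.14, and the median over all genes tested was 0.0066. Over all cells the intervals of Lgals9 and Lgals3bp already included 0. No intervals were formed for this subset, and how many of all genes were higher in it was not counted.

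**Figure D5:**
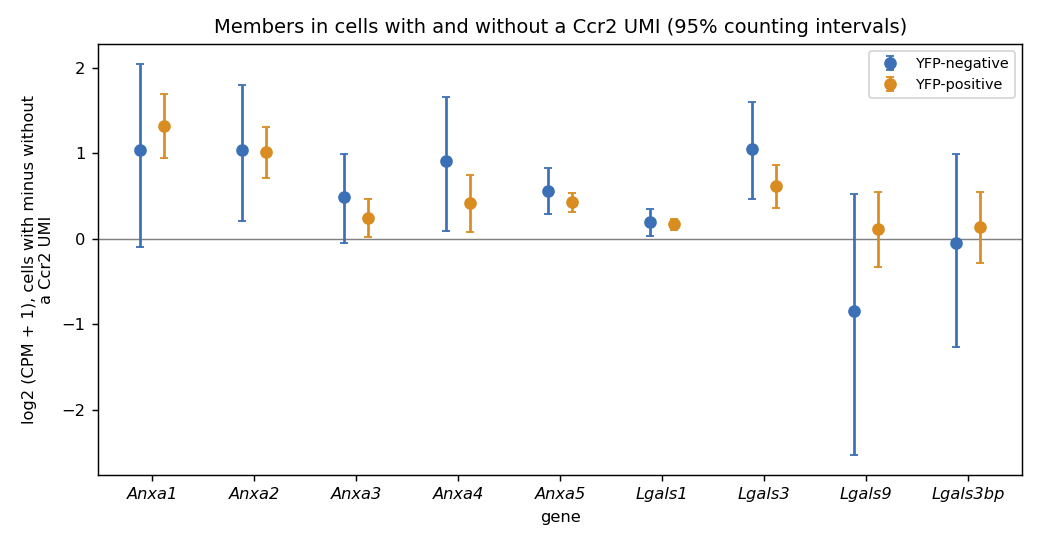
Level of each gene in cells with a Ccr2 UMI against cells without, as log2 of CPM + 1, in YFP-negative (blue) and YFP-positive cells (orange) with 95% counting intervals. Anxa1, Anxa2 and Lgals3 lie highest, at 1.32, 1.01 and 0.61 in YFP-positive cells, and the intervals of Lgals9 and Lgals3bp include 0.

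From cell to cell, Lgals3 was the most uneven of the 9 genes. At 1000 UMIs a cell (895 YFP-negative and 2869 YFP-positive cells) its variance was 3.29 and 1.80 times its mean, against a median of 1.06 and 1.01 over the genes tested, where counting alone gives 1. In YFP-negative 864 of 895 cells had no Lgals3 UMI, 25 had 1, 4 had 2, and 2 had more, up to 10 in a cell, so the value there rests on very few cells. Lgals1 had 1.48 and 1.46, with 370 of 895 and 1040 of 2869 cells without a UMI. Lgals9 was at 0.98 in both libraries, with no cell above 1 UMI.

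Across the same cells, likeness between genes was weak, and it is given as a description because the cells share library and depth. Among 2632 genes with a mean of at least 50 CPM, the gene most like Lgals3 was Capg, an actin-capping protein, with a Pearson r of 0.13 in YFP-negative and 0.17 in YFP-positive cells, then S100a6 and Crip1. Capg was also the nearest to Anxa1 (0.13 and 0.12), and Lgals3 itself the nearest to Anxa2 (0.12 and 0.13), followed by Retnla and Crip1. Lgals1 came closest to the actin-binding Pfn1 (0.13 and 0.11). No gene reached 0.1 in both libraries for Anxa3, Anxa4, Anxa5, Lgals9 or Lgals3bp. Of the 36 pairs among the 9, only Anxa2 with Lgals3 did.

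Those binding partners of the annexins that could be compared were higher in the YFP-positive library. Of 8 partners and receptors listed, 5 were high enough to compare. All 5 had intervals above 0, against 11.6% of all genes, with a median log2 ratio of 0.40. The list was chosen with earlier results of these libraries known, so this is a description. S100a4 and S100a6 are also markers that name the Ccr2 monocyte-derived-like cluster. Ratios of the partners with clusters weighted, or without Ccr2 cells, were not formed. S100a4 stood at 45.5 and 124 CPM, 1.43 (1.15 to 1.72), and S100a6, which binds Anxa2 among others, at 159 and 377 CPM, 1.24 (1.08 to 1.40). S100a10, the partner of Anxa2, was at 0.34 (0.21 to 0.47), S100a11, the partner of Anxa1, at 0.40 (0.21 to 0.59), and the membrane scaffold Ahnak at 0.34 (0.22 to 0.46). The formyl peptide receptors of Anxa1 were near the limit of detection, with 7 and 14 UMIs of Fpr2 and 0 and 3 of Fpr1.

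Among receptors and bridges that read phosphatidylserine, the lipid annexins bind, 9 were compared. None had an interval above 0 and 2 lay below, near the 11.6% and 13.8% of all genes: Gas6, which links the lipid to Axl and Mertk, at -0.44 (-0.53 to -0.35), and the scavenger receptor Stab1 at -0.47 (-0.55 to -0.39). Their median was -0.08. Among 9 receptors and ligands of galectins the median was 0.10, with Trem2 above 0 at 0.16 (0.04 to 0.27) and the lysosomal glycoprotein Lamp1 below at -0.18 (-0.27 to -0.10). Of 5 enzymes that build galectin-binding glycans only the galactosyltransferase B4galt1 had an interval above 0, at 0.27 (0.09 to 0.45). Within the 2 families, the other annexins that could be compared, Anxa6 and Anxa7, were at -0.11 (-0.45 to 0.25) and 0.12 (-0.20 to 0.45), and the remaining galectin, Lgals8, at 0.06 (-0.28 to 0.42).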

How the data were processed

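Both libraries were deposited as gene-by-barcode matrices of UMI counts, the raw counts as the authors' Cell Ranger run gave them (version 3.0.2 and Seurat 2.2.0 per the submitters' processing notes, while the methods name another Cell Ranger version), on GRCm38. Gene lists and barcodes were read as names only. Cells were barcodes with at least 500 UMIs and 200 genes, with no doublet caller and no limit on mitochondrial UMIs, whose highest share was 11.2% and 13.8%. Counts were summed per library, cluster or Ccr2 class and given as CPM with exact Poisson intervals. Ratios are log2 of CPM + 1 with exact binomial intervals, and shares of cells have Clopper-Pearson intervals (scipy 1.17.1). 1 UMI was worth 0.414 CPM in YFP-negative and 0.148 CPM in YFP-positive, and 3 counts were taken as the floor. Genes with a mean of at least 20 CPM were compared. Clusters were made with scanpy 1.11.5 (2000 variable genes, 20 principal components, 20 neighbours, Leiden resolution 0.8), and named from fixed marker lists. The ratio and its interval were tested on simulated Poisson counts, which is the model the interval assumes, so spread between cells was not covered. The thinning was checked on the YFP-negative cells. The 9 genes, the gene lists and the markers were chosen with earlier results of these data known. Named besides these are up to 3 genes most like a member and up to 5 leading genes of a cluster. No near-identical copy of a member was found among the annotated transcripts. Anxa1, Anxa2 and Anxa4 overlap an annotated gene on the other strand. Anxa2, Anxa3 and Anxa5 overlap one on the same strand (Mir3109, Gm42603 and Mir7009), and its effect on their counts was not tested.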

Additional observations from a re-analysis of the deposited data

Results flagged for a closer look

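Library ratios within clusters (log2 of CPM + 1, YFP-positive over YFP-negative) went in opposite directions for 4 genes, judged by counting intervals and with more than 3 UMIs in each library. The difference between the clusters was not itself tested, and over all genes tested 3.61% of such intervals lay above 0 and 5.69% below. Of the 81 intervals of the members 4 lay below 0, which is near that share. How many of all genes went in opposite directions was not counted, so the 4 genes are a description. Lgals3 was at 1.78 in the early response-like cluster and at -0.62 in the Ccr2 monocyte-derived-like cluster. Its UMIs were uneven between YFP-negative cells, with a variance of 3.29 times the mean, which counting intervals leave out. Anxa1 was at 1.21 in the early response-like cluster and at -1.89 in the Cd209 and Retnla-like cluster, the latter from 12 YFP-negative and 5 YFP-positive UMIs. Anxa4 was at 0.92 in the Ccl12-led cluster and at -1.69 in the interferon-like cluster, from 8 and 6 UMIs there. Lgals1 was at 0.999 in the mural-like cluster, from 13 and 167 UMIs, and at -0.40 in the cycling-like cluster, from 132 and 337 UMIs.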

How the results depend on the processing

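No paired analysis was possible because each fraction was 1 library. Of 126 alternative library ratios of the 9 genes, 125 kept their sign, the exception being Lgals3bp at -0.01 with cells thinned to 500 UMIs, and 121 stayed inside the counting interval. The other 5 were Anxa2 at 0.36 and Lgals3 at 0.023 with YFP-positive clusters weighted as in YFP-negative, Anxa3 at 0.00031 and Lgals1 at 0.23 with cells thinned to 500 UMIs, and Lgals1 at 0.20 with each cell weighted equally. The 2 genes past 1.5-fold became 0 under that cluster weighting, 0 in cells without a Ccr2 UMI and 0 at a threshold of 2-fold. The 7 genes with a higher share of cells in YFP-positive at 500 UMIs became 5 at 300 UMIs, 8 at 1000 UMIs and 4 without thinning, where YFP-negative cells are deeper. Anxa1 in YFP-negative cells turned from 1.03 to -0.54 when its Ccr2 split was made after thinning to 500 UMIs; the cause was not tested. Of 54 alternative ratios of the Ccr2 split 46 stayed inside the interval and 48 kept their sign. Of 63 alternative ratios between the highest and lowest cluster 54 stayed inside the interval. Of 142 alternative ratios of a named cluster to the other cells, added after seeing the data, 51 left the interval and 4 changed sign. Of 54 shares of cells 48 left their interval when the depth changed, and only 6 did not. The Lgals3 difference of the Ccr2 monocyte-derived-like cluster ran from 0.84 to 2.33 over the clusterings and that of Anxa2 from 0.58 to 2.04, while no cluster took the interferon name when cells were thinned first. Leaving out the Ccr2 monocyte-derived-like cluster or the Fhl3-led cluster, 2 alternatives chosen after seeing the data, left Anxa1 and Anxa2 past 1.5-fold, at 0.86 and 0.64 and at 0.92 and 0.80. Depth limits Anxa1, Anxa2, Lgals9 and Lgals3bp most, with 43 to 78 UMIs in YFP-negative cells.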

Other observations

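Some relatives of the 9 genes lay below the level set for comparison and are given as values. Havcr2, a receptor of Lgals9, had 5 UMIs in YFP-negative and 49 in YFP-positive cells, or 2.07 and 7.26 CPM. Anxa11 had 21 and 98 UMIs, or 8.68 and 14.5 CPM. Anxa8, Anxa10, Lgals2 and Lgals12 had no UMI in any cell of either library, and the floor of 3 counts a library is worth 1.24 CPM in YFP-negative and 0.445 CPM in YFP-positive cells, while the exact 95% upper bound of a count of 0 is 1.53 and 0.547 CPM. Anxa6 was 1.56 above other cells on the log2 scale in the mural-like cluster, beside the higher Anxa1 and Anxa2 there.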
